A study of Mus musculus with 43 samples.

Results

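MHC class I presentation and the immunoproteasome were followed through 10 genes of a table of 23256: B2m, H2-K1, H2-D1, H2-T23, Tap1, Tap2, Psmb8, Psmb9, Psmb10 and Nlrc5. The genes were chosen by name, with earlier results of these data known. All 10 were in the table and passed the filter on low values that 19170 genes passed. Poly-A RNA was sequenced from 43 libraries of back skin of female mice aged 10 to 13 weeks. They form 9 groups, 3 strains by 3 UVB regimens. UVB is the medium-wave ultraviolet light that burns skin. For acute UVB the skin received 300 mJ/cm2 in 1 exposure. For chronic UVB it received 100 mJ/cm2 on each of 5 days. The biopsy followed the last exposure by 24 hours. Strains were iNZM, NZM and WT. NZM is the lupus-prone line NZM2328. In lupus research iNZM stands for the same line lacking the receptor for type I interferons, but the labels do not define it, nor the strain called WT. Each exposed group had 5 libraries. Without UVB, NZM had 5 libraries, iNZM had 4 and WT had 4. The labels do not say that each library came from a separate animal, so p-values measure the spread between these libraries, which may be partly technical.

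MHC class I molecules show peptides from inside the cell to CD8+ T cells and to receptors of natural killer cells. The proteasome cuts the peptides, the Tap1-Tap2 pump moves them into the endoplasmic reticulum, and a heavy chain bound to B2m carries them to the surface. H2-K1 and H2-D1 encode classical heavy chains, and H2-T23 encodes Qa-1, a non-classical chain seen by inhibitory receptors of natural killer cells. Under interferon gamma, the catalytic subunits Psmb8, Psmb9 and Psmb10 take the places of Psmb5, Psmb6 and Psmb7 in newly built proteasomes. Nlrc5 is the transactivator of this gene group, and works through the conserved X and Y boxes of class I promoters. In skin, most nucleated cells carry class I, while the lower part of the growing hair follicle is known for low class I.

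All but B2m on chromosome 2 and Psmb10 and Nlrc5 on chromosome 8 lie in the MHC on chromosome 17 (GENCODE annotation of build GRCm38). There Psmb9, Tap1, Psmb8 and Tap2 stand side by side between 34181987 and 34216321. The stretches of promoter that hold the elements this pathway is known for are printed here, since the genes were measured together. They come from RefSeq, build GRCm38.p6, are read 5′ to 3′ on the strand of the gene, and, except for the last, end at the base before the gene's start. Capitals mark matches to an interferon response element core (GAAANNGAAA), its shortened form (GAANNGAAA), the kappa B site of enhancer A with the letters it has in H2-K1, the X2 box core (TGACG) and the Y box (ATTGG), each searched on both strands. A match on the other strand reads as its reverse complement, so CCAAT is a Y box and TTTCACTTC a shortened interferon core. The last sequence is the whole stretch between the starts of Psmb9 and Tap1, 225 bases, read towards Tap1.
B2m, chr2:122147537-122147686, plus strand: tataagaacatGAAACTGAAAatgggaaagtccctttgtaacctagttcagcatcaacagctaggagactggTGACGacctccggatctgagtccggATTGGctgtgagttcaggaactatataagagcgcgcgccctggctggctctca
H2-K1, chr17:34000348-34000472, minus strand: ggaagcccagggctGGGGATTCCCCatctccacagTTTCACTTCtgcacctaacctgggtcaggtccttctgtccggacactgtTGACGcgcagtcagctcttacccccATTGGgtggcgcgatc
H2-D1, chr17:35262909-35263093, plus strand: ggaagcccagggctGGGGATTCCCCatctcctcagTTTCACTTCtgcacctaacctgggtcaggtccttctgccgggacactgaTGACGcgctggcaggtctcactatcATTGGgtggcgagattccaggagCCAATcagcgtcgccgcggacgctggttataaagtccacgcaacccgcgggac
Tap1-Psmb9, chr17:34187331-34187555, plus strand: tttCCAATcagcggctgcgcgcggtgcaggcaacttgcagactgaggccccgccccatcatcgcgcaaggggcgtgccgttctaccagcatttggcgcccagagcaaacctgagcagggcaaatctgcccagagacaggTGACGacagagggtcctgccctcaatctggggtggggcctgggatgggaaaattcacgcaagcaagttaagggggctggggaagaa

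In the 250 bases before the start, of 8 of the 10 genes found in the promoter table, the kappa B site, read from H2-K1, was also in H2-D1, and in 0.0304% of 32851 promoters. The interferon response element core was in B2m and H2-T23, and in 2.98% of all promoters. Its shortened form was in H2-K1 and H2-D1, and in 6.31% of all promoters. A gamma-activated site (TTCNNNGAA) was in Psmb8, and in 7.02% of all. The X2 core alone was in 17.8% of all promoters and the Y box alone in 33.8%, so either by itself is common. Both on 1 strand with 20 bases between them were in B2m, H2-K1 and H2-D1, and in 0.0913% of all promoters. That spacing was chosen after these sequences were seen. The marked matches of different elements do not overlap one another. H2-K1 has a second entry in the table, and the first was used. Tap2 and Nlrc5 were not in that table. A match describes letters in this window and does not show binding.

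Per kilobase of exon, B2m was the highest of the genes in unexposed skin, at 30100 ± 1090 normalised reads per kb in iNZM, 33900 ± 4200 in NZM and 25500 ± 2760 in WT (SD, n = 4, 5 and 4). The normalised read count, called value here, is the number of reads of a gene divided by 1 size factor per library. H2-D1 stood at 14400 ± 1970, 14200 ± 1650 and 11500 ± 1600 per kb in the same 3 groups, above H2-K1 at 8050 ± 693, 8160 ± 1200 and 5310 ± 753. The transactivator gene Nlrc5 was the lowest, at 113 ± 22.0, 133 ± 43.2 and 111 ± 15.8 per kb. Among the immunosubunits, Psmb9 lay above Psmb10 and Psmb8 in both NZM lines, and Psmb10 was highest in WT, at 404 ± 73.4 per kb against 349 ± 57.1 for Psmb9.

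Libraries held 18.49 to 37.76 M reads (median 24.44 M). The receptor gene Ifnar1 had values of 304 to 579 in iNZM, 716 to 1148 in NZM and 758 to 1378 in WT, so iNZM did not overlap the other strains. The hair follicle score of a library is its mean log2 level, centred per gene, of 20 genes of the growing hair follicle. It was above 5 in 9 libraries, between 6.20 and 9.20, and at most 3.10 in the others. The 9 are NZM acute 5, NZM chronic 17, 55 and 56, iNZM acute 6 and 49, and iNZM chronic 22, 24 and 25. No unexposed library and no WT library was among them. Where leaving out these 9 ended a call of the 10 genes against no UVB or moved its value by over 1.5 times, the value without them stands beside the result. In whole skin, fewer cells of a type and less RNA per cell cannot be told apart.

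Class I presentation genes were lower after UVB in both NZM lines. In iNZM skin, 9 of the 10 genes fell after acute UVB and 10 of 10 after chronic UVB, with median log2 differences of -1.42 and -1.57. In NZM skin, 3 fell after acute UVB and 8 after chronic UVB, with medians of -0.81 and -1.0. In WT skin 0 passed the test after either regimen, with medians of -0.33 and -0.12. No gene of the 10 rose in these 6 comparisons, and the median over all genes tested was between 0.0 and 0.04. Calls are from limma on log2(value + 1), with Benjamini-Hochberg adjustment over all 19170 genes at 0.05. Of all genes tested, 12.4% and 15.7% were called lower in iNZM after acute and chronic UVB, 10.7% and 9.78% in NZM, and 11.3% and 16.8% in WT. Called higher were 12.8% and 13.1% of all genes in iNZM, 10.6% and 9.20% in NZM and 10.4% and 18.4% in WT. At an unadjusted p below 0.05 WT also had 0 of 10 after either regimen, and edgeR and DESeq2 on recovered reads called 0 there. With only the 2 compared groups in the fit, the iNZM acute calls of B2m, H2-K1, H2-D1 and Psmb8 were lost (adjusted p = 0.0636, 0.0914, 0.135 and 0.0757), as was the iNZM chronic call of Nlrc5 (0.0897). In that fit H2-K1, H2-T23, Tap2 and Psmb8 were called in NZM after acute UVB (0.0353, 0.0267, 0.0456 and 0.027), H2-D1 in NZM after chronic UVB (0.026) and Nlrc5 in WT after acute UVB (0.0301).

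Exposed and unexposed libraries did not overlap for 9 and 9 genes in iNZM, where 10.4% and 10.9% of all genes had the same pattern, lower after UVB. In NZM the counts were 4 and 6, against 9.91% and 6.91% of all genes. In WT they were 0 and 0, against 11.5% and 15.0%.

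The libraries with a high hair follicle score held the lowest value of every one of the 10 genes in each of the 4 exposed NZM and iNZM groups. The share of all genes with this pattern is not given here. In both chronic groups 3 libraries scored high and 2 did not, so a lowest value among the 3 is likely for any gene. The 10 genes also moved together, so they are not 10 separate observations. All high-score libraries lay below all the others for 9 genes in iNZM after acute UVB, 10 in iNZM after chronic UVB, 10 in NZM after acute UVB and 9 in NZM after chronic UVB. The shares of all genes with that order were 27.1%, 26.5%, 32.1% and 24.5%. Without the 9 libraries, 8 and 8 genes fell in iNZM after acute and chronic UVB, and 7 and 3 in NZM. Background shares lower were then 10.9% and 10.7% in iNZM, and 14.1% and 2.67% in NZM. Median differences were -0.68 and -0.98 in iNZM and -0.51 and -0.56 in NZM, from 3, 2, 4 and 2 exposed libraries. In WT, whose own libraries were the same, the refit called 3 lower and 1 higher after acute UVB and 3 lower after chronic UVB, against 15.0% and 21.2% of all genes lower and 13.9% higher after acute UVB. These were B2m, H2-T23 and Nlrc5 lower and Psmb10 higher after acute UVB (adjusted p = 0.0374, 0.00623, 0.0438 and 0.0464), and B2m, H2-K1 and H2-T23 lower after chronic UVB (0.0222, 0.0312 and 0.0312). With the score as a covariate instead, 9 and 9 genes fell in iNZM, 4 and 0 in NZM, and 0 and 3 in WT, where 1 gene, Psmb10, rose after acute UVB. Of all genes, 10.7% and 5.77% fell in iNZM in that fit, 13.0% and 6.54% in NZM and 14.0% and 20.8% in WT, and 13.0% rose in WT after acute UVB. The NZM chronic differences then lay between -0.51 and 0.03. The part of hair follicle RNA in these differences was not tested.

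**Figure D1:**
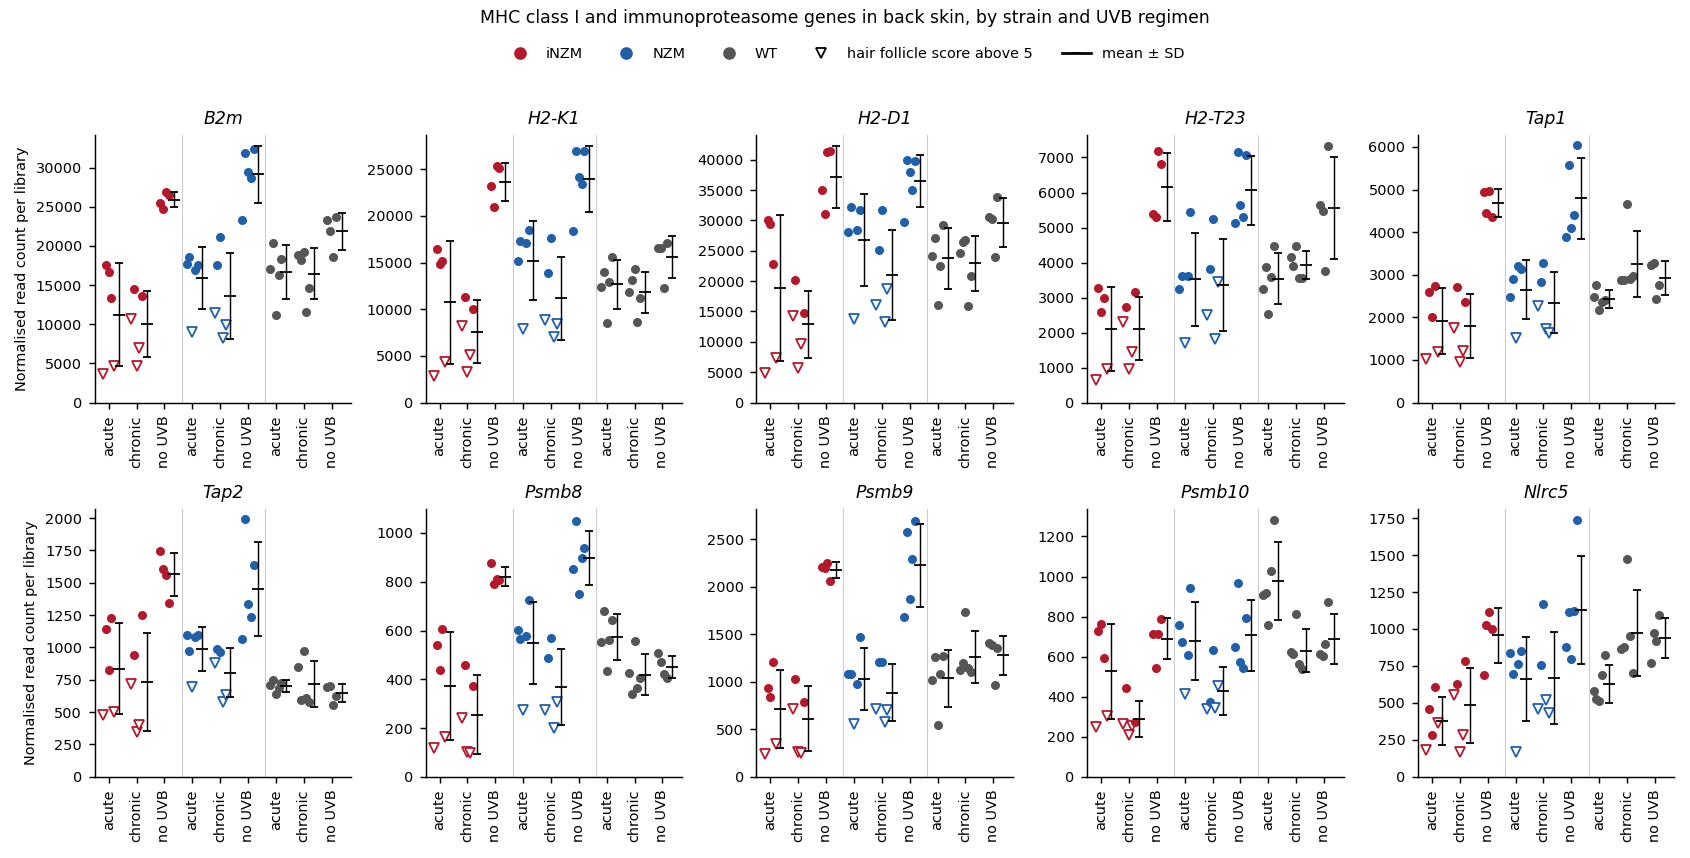
Normalised read count (y axis, linear from 0) of each of the 10 genes in every library, by strain and regimen (acute UVB, chronic UVB, no UVB); bars are mean ± SD of 4 or 5 libraries and open triangles are the 9 libraries with a hair follicle score above 5. In iNZM and NZM the triangles sit at the bottom of their groups, except for Psmb10 in NZM after chronic UVB and Nlrc5 in iNZM after acute UVB. For most genes the unexposed libraries of both lines sit above most exposed ones.

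**Figure D2:**
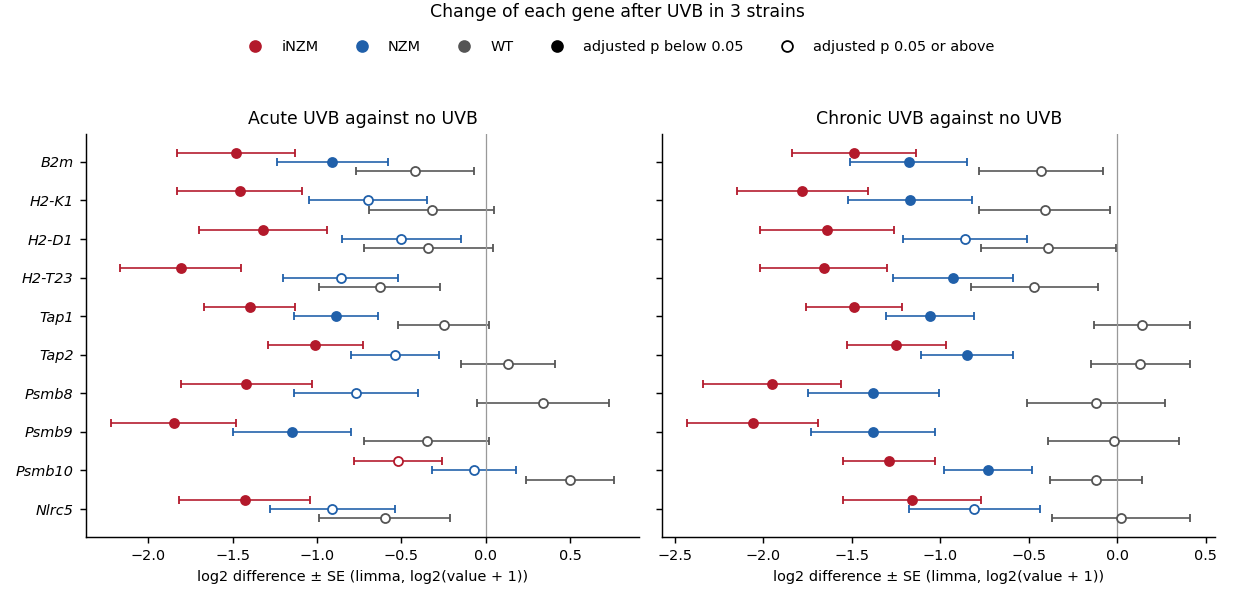
log2 difference ± SE of each gene after acute (left) and chronic (right) UVB against no UVB in iNZM, NZM and WT, with filled points for limma adjusted p below 0.05. Filled points number 9 and 10 in iNZM, 3 and 8 in NZM and 0 and 0 in WT, and Psmb9 has the lowest value in both regimens of iNZM.

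**Figure D3:**
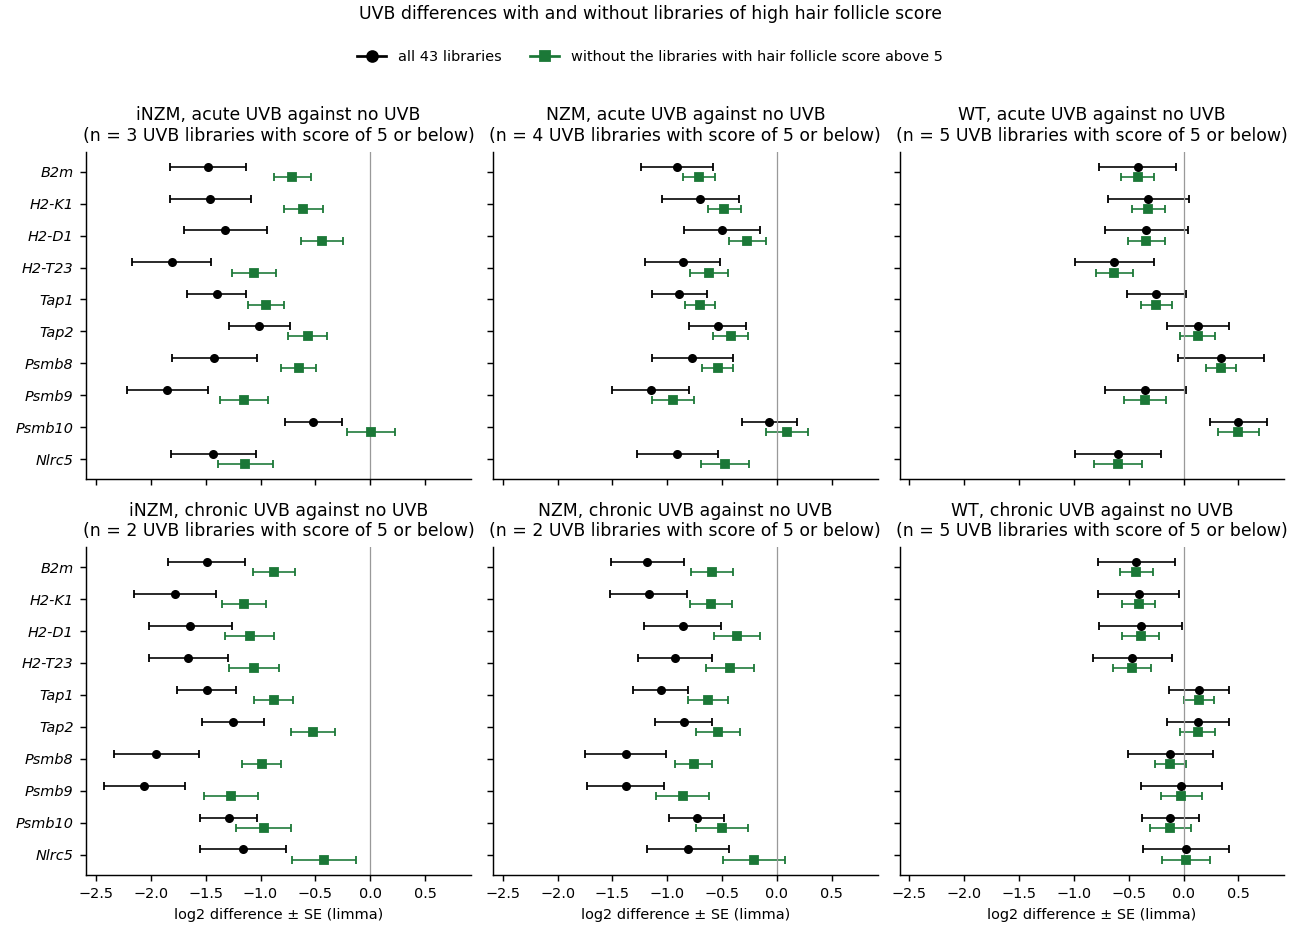
log2 difference ± SE of each gene in the 6 comparisons with UVB, from all 43 libraries (black circles) and without the 9 libraries with a hair follicle score above 5 (green squares). In iNZM and NZM the squares lie closer to 0 for every gene except Psmb10 in NZM after acute UVB (0.09 against -0.07), with medians of -0.68 and -0.98 in iNZM and -0.51 and -0.56 in NZM.

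B2m, the light chain shared by all class I molecules, had values of 3705, 13398, 4675, 17563 and 16670 in iNZM skin after acute UVB. It had 13663, 10631, 14459, 4601 and 6955 in iNZM after chronic UVB, against 25495, 24778, 26853 and 26445 in iNZM without UVB. All exposed iNZM libraries lay below all unexposed ones, and the lowest after acute UVB were the high-score libraries 6 and 49. B2m fell with log2 differences of -1.48 ± 0.35 (SE) after acute UVB and of -1.49 ± 0.35 after chronic UVB in iNZM (limma adjusted p = 0.00166 and 0.00238). With the high-score libraries left out, the differences were -0.71 ± 0.17 and -0.88 ± 0.19 (adjusted p = 0.00283 and 0.00213), still with no overlap.

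In NZM skin B2m had 17680, 16947, 18530, 17620 and 8954 after acute UVB and 21182, 11481, 17535, 8181 and 9851 after chronic UVB, against 23328, 31862, 29463, 28695 and 32421 without UVB. The groups did not overlap, and 4 of the 5 acute libraries lay within a narrow band above library 5. B2m fell with log2 differences of -0.91 ± 0.33 after acute UVB (adjusted p = 0.0423) and of -1.18 ± 0.33 after chronic UVB (adjusted p = 0.0123). The acute call was lost when any of 7 libraries was left out, NZM acute 1, 5 or 46 or NZM unexposed 32, 33, 34 or 35, with adjusted p up to 0.136. It was also lost with a covariate for library numbers of 46 or above (-0.86, limma adjusted p = 0.0681). Without all high-score libraries the spread was smaller and B2m fell by 0.71 ± 0.15 after acute UVB (adjusted p = 0.00068), and differed by -0.59 ± 0.19 after chronic UVB (adjusted p = 0.0646). In WT skin B2m had 11207, 16256, 17042, 18325 and 20406 after acute UVB and 11617, 18788, 18164, 19210 and 14587 after chronic UVB, against 23352, 21914, 18530 and 23758 without. The WT ranges overlapped through the unexposed library 44, and the differences were -0.42 ± 0.35 and -0.43 ± 0.35 (adjusted p = 0.449 and 0.348).

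H2-K1 averaged 10731 ± 6561 after acute UVB and 7568 ± 3363 after chronic UVB in iNZM (SD, n = 5 each), against 23650 ± 2037 without UVB (n = 4). It ran from 2877 to 16454 after acute UVB and from 3259 to 11276 after chronic UVB, all below the lowest unexposed library at 20938. H2-K1 fell with log2 differences of -1.46 ± 0.37 and -1.78 ± 0.37 (adjusted p = 0.00362 and 0.000933), and without the high-score libraries the differences were -0.61 ± 0.18 and -1.15 ± 0.20 (0.0119 and 0.000239). In NZM it averaged 15192 ± 4228 after acute UVB and 11160 ± 4426 after chronic UVB, against 23960 ± 3513 without UVB (n = 5 each). The chronic libraries, at 17582, 8830, 13889, 7055 and 8444, all lay under the lowest unexposed library, at 18385, and H2-K1 fell by 1.17 ± 0.35 (adjusted p = 0.0193). That call was lost without library 55 (adjusted p = 0.0648) or 56 (0.0554) of NZM chronic, and without all high-score libraries, where the difference was -0.60 ± 0.19 (adjusted p = 0.0629). After acute UVB the difference in NZM was -0.70 ± 0.35 (adjusted p = 0.156), with an overlap at 18440 in library 47, and without the high-score libraries it passed at -0.48 ± 0.15 (0.018).

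H2-D1, the second classical heavy chain, averaged 18890 ± 12074 after acute UVB and 12904 ± 5534 after chronic UVB in iNZM, against 37200 ± 5078 without UVB. It fell with log2 differences of -1.32 ± 0.38 and -1.64 ± 0.38 (adjusted p = 0.00885 and 0.00201), with no overlap in either. After the high-score libraries were left out, the acute difference was -0.44 ± 0.19 (adjusted p = 0.108), the chronic one -1.10 ± 0.22 (0.000919), and leaving out library 6 alone gave adjusted p = 0.0554 for acute UVB. In NZM H2-D1 did not pass, at -0.50 ± 0.35 and -0.86 ± 0.35 (adjusted p = 0.345 and 0.0809), or -0.27 ± 0.17 and -0.36 ± 0.21 without the high-score libraries (0.249 and 0.345), and it was 1 of the 2 genes not called after chronic UVB. H2-T23, the Qa-1 chain, averaged 2091 ± 1201 and 2114 ± 898.5 in iNZM after acute and chronic UVB, against 6167 ± 968 without. It fell with log2 differences of -1.81 ± 0.36 and -1.66 ± 0.36 (adjusted p = 0.000298 and 0.00133), and without the high-score libraries both differences were -1.06 (0.000236 and 0.0015). H2-T23 in NZM after chronic UVB fell by 0.93 ± 0.34 at adjusted p = 0.0495, with overlap. That call was lost without any of 8 libraries, NZM chronic 17, 55 and 56 and NZM unexposed 31, 32, 33, 34 and 35 (adjusted p up to 0.166), and by edgeR (0.0611). In the fit with no high-score library, H2-T23 differed in NZM by -0.43 ± 0.22 after chronic UVB (adjusted p = 0.272), and after acute UVB it passed at -0.62 ± 0.17 (0.00803). H2-K1, H2-D1 and H2-T23 are related in sequence to other class I genes, and the strains may carry other haplotypes than the mm10 reference. How reads were shared between these genes is thus uncertain. The part of read sharing in differences between strains was not tested.

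Tap1, a chain of the peptide pump, had 1021, 2726, 1193, 2601 and 2016 in iNZM after acute UVB and 2367, 1745, 2717, 949 and 1201 in iNZM after chronic UVB, against 4941, 4457, 4977 and 4357 without UVB. The exposed libraries lay under the unexposed ones without overlap, by a wide gap. Tap1 fell with log2 differences of -1.40 ± 0.27 and -1.49 ± 0.27 (adjusted p = 0.000195 and 0.000193). In NZM it had 2474, 3210, 2900, 3123 and 1515 after acute UVB and 3280, 2267, 2840, 1726 and 1627 after chronic UVB, against 3878, 5572, 4093, 4402 and 6035 without. There too the groups did not overlap, and Tap1 fell with log2 differences of -0.89 ± 0.25 and -1.06 ± 0.25 (adjusted p = 0.00995 and 0.00386). Without the high-score libraries Tap1 still fell in all 4 comparisons, with log2 differences of -0.95 ± 0.16 and -0.88 ± 0.18 in iNZM and of -0.70 ± 0.14 and -0.63 ± 0.18 in NZM (adjusted p = 7.24e-05, 0.00118, 0.00041 and 0.031). In WT Tap1 had 2182, 2363, 2476, 2408 and 2756 after acute UVB and 2898, 2877, 2885, 4652 and 2965 after chronic UVB, against 3217, 3267, 2426 and 2750 without. All ranges overlapped with the unexposed one, and the differences were -0.25 ± 0.27 and 0.14 ± 0.27 (adjusted p = 0.573 and 0.715).

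Tap2, the other chain of the pump, averaged 836 ± 350 and 733 ± 378 in iNZM after acute and chronic UVB, against 1565 ± 166 without UVB. It fell with log2 differences of -1.01 ± 0.28 and -1.25 ± 0.28 (adjusted p = 0.00668 and 0.00148). With the high-score libraries left out, Tap2 in iNZM still passed after acute UVB, at -0.57 ± 0.18 (adjusted p = 0.0222), but not after chronic UVB, at -0.52 ± 0.20 (0.0677). In NZM Tap2 averaged 988 ± 172 and 806 ± 192, against 1455 ± 365, and it fell by 0.85 ± 0.26 after chronic UVB (adjusted p = 0.0218). That call was lost without NZM chronic 55 (adjusted p = 0.0736) or 56 (0.0676) or NZM unexposed 32 (0.067), and without all high-score libraries, where the difference was -0.54 ± 0.20 (0.105). After acute UVB its difference in NZM was -0.54 ± 0.26 (adjusted p = 0.138), or -0.42 ± 0.16 without those libraries (0.0444). In WT Tap2 was at 702 ± 42.8 and 719 ± 180, against 646 ± 69.9.

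Over all libraries, the immunosubunits Psmb8 and Psmb9 had the largest falls of the 10 genes after chronic UVB in both NZM lines. Without the high-score libraries this held in NZM, and for Psmb9 in iNZM. There Psmb8 (-0.99) then fell less than H2-K1 (-1.15), H2-D1 (-1.10) and H2-T23 (-1.06). Psmb9 had 239, 1206, 348, 934 and 841 in iNZM after acute UVB and 790, 711, 1031, 263 and 254 after chronic UVB, against 2206, 2198, 2246 and 2055 without. The 4 unexposed libraries stood close together, and every exposed one was at most 1206. Psmb9 fell with log2 differences of -1.85 ± 0.37 and -2.06 ± 0.37 in iNZM (adjusted p = 0.00036 and 0.000223), and without the high-score libraries the differences were -1.15 ± 0.22 and -1.27 ± 0.25 (0.000325 and 0.000831). Psmb9 in NZM had 1077, 975, 1078, 1467 and 554 after acute UVB and 1208, 714, 1204, 581 and 702 after chronic UVB, against 1682, 2578, 1866, 2294 and 2696 without. These groups did not overlap either, and Psmb9 fell with log2 differences of -1.15 ± 0.35 and -1.38 ± 0.35 (adjusted p = 0.0164 and 0.00707). The acute call was lost without library 5 alone (adjusted p = 0.0607), but without all 9 high-score libraries the spread was smaller and Psmb9 fell by 0.95 ± 0.19 (adjusted p = 0.000496). The chronic difference was then -0.86 ± 0.24 (adjusted p = 0.0332). In WT Psmb9 averaged 1035 ± 296 and 1261 ± 269, against 1277 ± 209 (adjusted p = 0.579 and 0.97).

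Psmb8 averaged 372 ± 221 after acute UVB and 255 ± 160 after chronic UVB in iNZM, against 821 ± 38.2 without. It fell with log2 differences of -1.42 ± 0.39 and -1.95 ± 0.39 (adjusted p = 0.0068 and 0.000613), and without the high-score libraries the differences were -0.65 ± 0.16 and -0.99 ± 0.18 (0.00281 and 0.000336). In NZM Psmb8 had 571, 274, 489, 199 and 308 after chronic UVB, against 851, 1051, 752, 899 and 939 without, with no overlap. There it fell by 1.38 ± 0.37 (adjusted p = 0.00912), and without the high-score libraries the difference was -0.76 ± 0.17 (adjusted p = 0.00797). After acute UVB in NZM the difference was -0.77 ± 0.37 (adjusted p = 0.135), or -0.54 ± 0.14 without those libraries (0.00378), and the groups did not overlap.

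Psmb10, which lies outside the MHC, was not called after acute UVB in any of the 3 strains. It averaged 527 ± 238 in iNZM, against 689 ± 103 without UVB, 679 ± 193 in NZM, against 706 ± 175, and 979 ± 196 in WT, against 688 ± 125.2. The acute differences were -0.52 ± 0.26, -0.07 ± 0.25 and 0.50 ± 0.26 (adjusted p = 0.147, 0.875 and 0.183), with overlap in all 3 strains. Without the high-score libraries they were 0.01 ± 0.22 in iNZM and 0.09 ± 0.19 in NZM (0.982 and 0.763). After chronic UVB Psmb10 had 275, 261, 444, 208 and 252 in iNZM, against 711, 545, 714 and 787 without, and it fell by 1.29 ± 0.26 with no overlap (adjusted p = 0.000759). In NZM it had 631, 339, 374, 344 and 453 after chronic UVB, against 649, 968, 576, 544 and 792 without. It fell by 0.73 ± 0.25 (adjusted p = 0.037), with library 54 inside the unexposed range. That call was lost without any of 7 libraries, NZM chronic 17, 18, 55 and 56 and NZM unexposed 31, 32 and 35 (adjusted p up to 0.109), and without all high-score libraries, where the difference was -0.50 ± 0.24 (0.228). In iNZM it was then -0.97 ± 0.25 (0.0063).

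Chronic and acute UVB, which differ in dose per exposure and number of exposures, were set against each other within each strain. Psmb10 was the single gene of the 10 called, lower after chronic than after acute UVB by 0.78 ± 0.25 on the log2 scale in iNZM and by 0.63 ± 0.25 in WT (adjusted p = 0.0449 and 0.0443). Called in either direction were 8.26% of all genes in iNZM, 37.3% in WT and 7.55% in NZM, where Psmb10 differed by -0.65 ± 0.25 (adjusted p = 0.0996). NZM thus had 0 of 10 called, with 1 at an unadjusted p below 0.05 and 0 by edgeR and DESeq2. The Psmb10 values overlapped in every strain. Both calls lay close to the threshold, and each was lost without the filter on low values (adjusted p = 0.0517 in iNZM and 0.0504 in WT). Fitted with the 2 compared groups only, the iNZM call was lost (adjusted p = 0.405). The iNZM call was lost without iNZM acute 9, 10 or 48 or iNZM chronic 22, 24, 25 or 57 (adjusted p up to 0.184). The WT call was lost without WT acute 13, 15, 51 or 52 or WT chronic 27, 28, 58 or 59 (up to 0.125). Leaving out NZM acute 5 gave a call in NZM (-0.82, adjusted p = 0.0337). In WT the chronic Tap1 libraries all lay above the acute ones, a pattern that 12.5% of all genes had, but the difference of 0.39 ± 0.25 did not pass (adjusted p = 0.228). After the high-score libraries were left out, Psmb10 differed by -0.98 in iNZM, -0.60 in NZM and -0.63 in WT (adjusted p = 0.00732, 0.126 and 0.00522). H2-D1 in iNZM (-0.66, 0.0396), and Psmb8 (-0.46, 0.00477), Tap1 (0.39, 0.0165) and Nlrc5 (0.61, 0.0181) in WT then passed too. The share of all genes called in that fit is not given here.

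The ratio of an immunosubunit to the constitutive subunit it replaces does not depend on a library's size factor, and shows unequal change of 2 genes rather than which one changed. Psmb9 to Psmb6 had a geometric mean ratio of 0.117 in iNZM after acute UVB and 0.102 after chronic UVB, against 0.562 without UVB. In NZM the same ratio was 0.198 and 0.185, against 0.561, and in WT it was 0.183 and 0.243, against 0.373. Of 18 ratio tests, 11 passed, all with lower ratios after UVB and each with an adjusted p of 0.026 (exact permutation test, two-sided, adjusted over the 18). Psmb9 to Psmb6 passed in all but WT after chronic UVB, with differences of -2.27 and -2.46 on the log2 scale in iNZM, -1.51 and -1.61 in NZM and -1.03 after acute UVB in WT. In WT after chronic UVB it differed by -0.62 (exact permutation test, adjusted p = 0.0816).

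Psmb8 to Psmb5 passed in all but WT after acute UVB. Its ratio was 0.300 and 0.170 in iNZM after acute and chronic UVB, against 1.05 without, 0.498 and 0.329 in NZM, against 1.14, and 0.350 in WT after chronic UVB, against 0.721. Psmb10 to Psmb7 passed only in iNZM after chronic UVB, at 0.126 against 0.337, with 18 tests run. WT thus had lower ratios in 2 tests although 0 of the 3 immunosubunits fell there, and in WT all 3 of Psmb5, Psmb6 and Psmb7 rose after acute UVB. Without those libraries 0 of 18 tests passed after adjustment. Psmb9 to Psmb6 still differed by -1.72 and -1.93 in iNZM and by -1.29 and -1.03 in NZM (exact permutation test, adjusted p = 0.143, 0.185, 0.0714 and 0.171). The smallest two-sided exact p was then 0.0571 and 0.133 in iNZM and 0.0159 and 0.0952 in NZM, so 3 of these 4 comparisons could not have passed. The iNZM and WT calls were also lost, at adjusted p of 0.0536 or 0.0584, when any unexposed library of the strain was left out, since 3 unexposed libraries allow no smaller p.

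**Figure D4:**
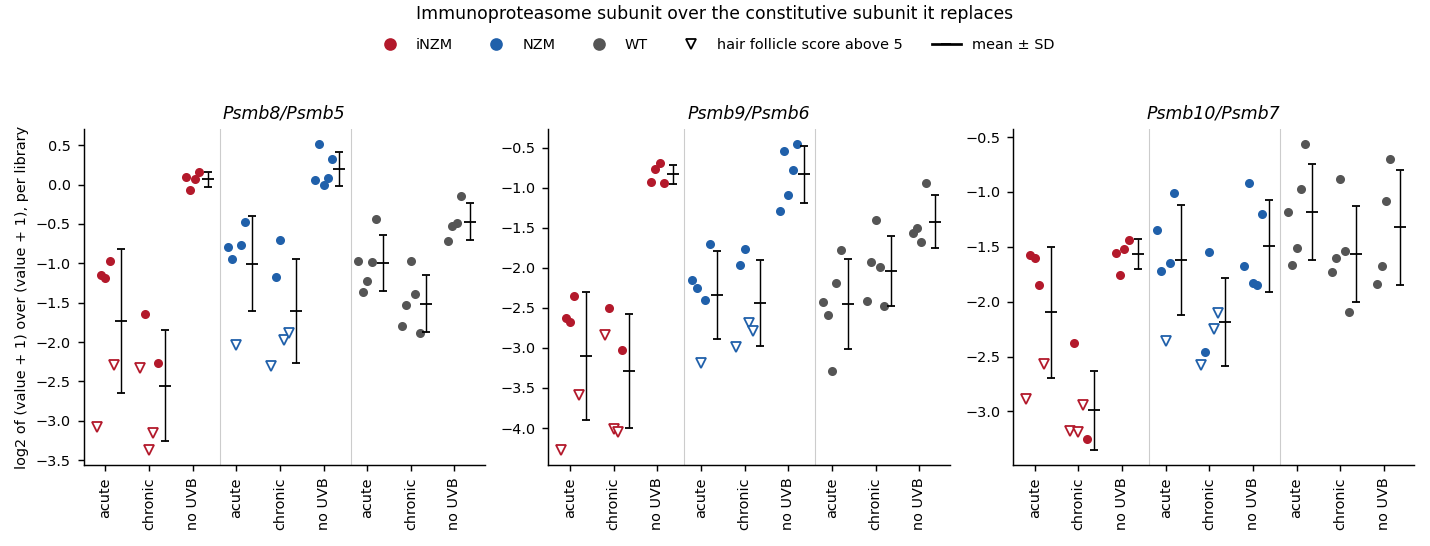
log2 ratio of (value + 1) of an immunosubunit over the constitutive subunit it replaces (y axis), per library, for Psmb8/Psmb5, Psmb9/Psmb6 and Psmb10/Psmb7, by strain and regimen; bars are mean ± SD and open triangles are libraries with a hair follicle score above 5. For Psmb9/Psmb6 the exposed iNZM and NZM libraries lie below the unexposed ones, which sit near a mean of -0.83 in both lines.

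Nlrc5, the transactivator of class I genes, had 181, 604, 362, 456 and 284 in iNZM after acute UVB and 785, 552, 629, 169 and 281 after chronic UVB, against 686, 1026, 1115 and 998 without UVB. The acute libraries were all below the unexposed ones, while chronic library 57, at 785, lay inside the unexposed range. Nlrc5 fell with log2 differences of -1.43 ± 0.39 after acute UVB (adjusted p = 0.00683) and of -1.16 ± 0.39 after chronic UVB (adjusted p = 0.0257). The chronic call was lost without iNZM chronic 24 (adjusted p = 0.117) or 25, or without iNZM unexposed 38, 39 or 40, and without all high-score libraries the difference was -0.42 ± 0.29 (adjusted p = 0.311). The acute call held without them, at -1.14 ± 0.25 (adjusted p = 0.00145). In NZM Nlrc5 averaged 664 ± 284 and 668 ± 310 after acute and chronic UVB, against 1130 ± 367, and did not pass (adjusted p = 0.0748 and 0.119), with differences of -0.47 ± 0.22 and -0.21 ± 0.28 without the high-score libraries (0.116 and 0.721). A covariate for library numbers of 46 or above gave a call of Nlrc5 in NZM after acute UVB (-1.07, limma adjusted p = 0.0351). In WT Nlrc5 averaged 627 ± 130 and 975 ± 292, against 940 ± 134 (adjusted p = 0.312 and 0.98).

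Across the 43 libraries, with the group means removed, Nlrc5 moved with each of the other 9 genes. Pearson's r ran from 0.632 with Psmb10 to 0.811 with Tap1 and Spearman's rho from 0.579 with Psmb10 to 0.777 with Psmb9, and all 9 passed (permutation test within groups, 9 relations, adjusted p between 4.5e-05 and 0.00015 for r and between 4.5e-05 and 0.00053 for rho). The raw p of 1e-05 for Psmb9 is the smallest that the resamples can give. Without the 2 libraries farthest from the median of Nlrc5, NZM acute 5 and iNZM chronic 24, r ran from 0.574 to 0.759. Among the 13 libraries numbered 46 or above r was 0.599 to 0.867, and among the 30 with lower numbers 0.660 to 0.814. All of the 13 came from exposed groups, so this split is not independent of UVB. Without the 9 high-score libraries r ran from 0.218 with H2-D1 to 0.554 with Tap1, and 6 of 9 passed. B2m (r = 0.237, adjusted p = 0.288 by the permutation test), H2-D1 (adjusted p = 0.288) and Psmb10 (r = 0.400, adjusted p = 0.0566) did not. The share of all genes that move with Nlrc5 was not measured, so these relations are not shown to be particular to this pathway. In the 4 exposed NZM and iNZM groups, 24.5% to 32.1% of all genes had every high-score library below the others.

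**Figure D5:**
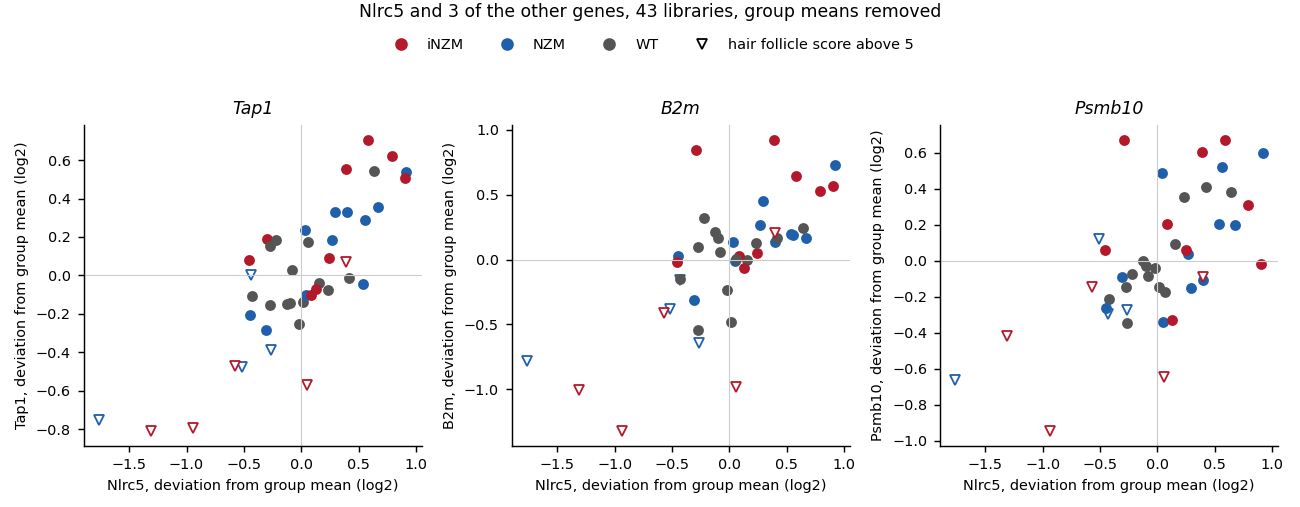
Deviation of Nlrc5 from its group mean (x axis, log2) against that of Tap1, B2m and Psmb10 (y axes, log2) in 43 libraries, coloured by strain, with open triangles for libraries with a hair follicle score above 5. Points rise from lower left to upper right, with r of 0.811 for Tap1, 0.699 for B2m and 0.632 for Psmb10, and the lowest Nlrc5 deviations, -1.76 and -1.31, are triangles.

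Ordered by mean level, unexposed NZM or unexposed iNZM came first for 9 of the 10 genes, and iNZM after chronic or after acute UVB came last for 9. The exceptions were Psmb10, highest in WT after acute UVB, and Tap2, lowest in unexposed WT. The highest group mean was 2.42 times the lowest for Tap2 and 3.65 times for Psmb9, with the other genes between. Neighbours in the order mostly did not differ beyond their spread. At most 1 of 8 steps between neighbours exceeded the summed SD of the 2 groups, for B2m, H2-K1, Tap1, Psmb8 and Psmb9, and 0 for the other genes.

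iNZM was compared with NZM under each regimen. None of the 10 genes was called without UVB, after acute UVB or after chronic UVB, where 0.0313%, 0.224% and 0.428% of all genes were called in either direction. Without UVB the lines had close means, such as 4683 ± 322 in iNZM and 4796 ± 953 in NZM for Tap1, and differences between -0.21 and 0.13. After acute UVB all 10 genes had lower means in iNZM, with a median of -0.73 and a range from -0.93 for H2-T23 to -0.33 for Tap2. After chronic UVB the median was -0.60, again with 10 of 10 negative. At an unadjusted p below 0.05 these comparisons had 0, 6 and 3 genes, and edgeR and DESeq2 called 0 in each. The share of all genes at the unadjusted cutoff is not given here, so the 6 and 3 have no background to be set against. The UVB effects themselves differed in the same direction for all 10 genes, with medians of -0.61 after acute and -0.57 after chronic UVB for iNZM minus NZM, but 0 passed (backgrounds 0.00522% and 0.0%, and 0 at an unadjusted p below 0.05). Since the 10 genes moved together over the libraries, a shared sign is not 10 separate observations. The 2 lines had 2 and 1 high-score libraries after acute UVB, and 3 and 3 after chronic UVB. Without them the median difference between the lines was -0.19 after acute UVB, with a range from -0.87 to -0.01, and -0.44 after chronic UVB, with 9 of 10 negative. The median differences in the UVB effects were then -0.16 and -0.35, and 0 genes passed.

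NZM was compared with WT to set the lupus-prone line against the other strain. Without UVB, Tap2 had 1068, 1990, 1338, 1237 and 1641 in NZM, against 696, 705, 556 and 625 in WT. Every NZM library was above every WT library, and Tap2 was 2.21-fold higher, a log2 difference of 1.14 ± 0.28 (adjusted p = 0.00351), where 15.0% of all genes were called in either direction. H2-K1, Tap1, Psmb8 and Psmb9 also did not overlap between the strains, higher in NZM, so that 5 of 10 had this pattern, against 10.2% of all genes. These 5 all lie between 33996017 and 34216321 on chromosome 17, where the strains may carry different haplotypes. They are therefore not 5 separate observations to set against that share. The part of haplotype in these differences was not tested. Psmb8 averaged 898 ± 110 in NZM and 450 ± 46.9 in WT (SD, n = 5 and 4), a difference of 0.99 ± 0.39 that did not pass (adjusted p = 0.0807). Tap1 differed by 0.71 ± 0.27 (adjusted p = 0.0702), Psmb9 by 0.79 ± 0.37 (0.159) and H2-K1 by 0.62 ± 0.37 (0.29). All 4 passed when only the compared groups were fitted and when the high-score libraries, none of them in these 2 groups, were left out. Without those libraries Tap1 had adjusted p = 0.000529, Psmb8 3.75e-06, Psmb9 0.00381 and H2-K1 0.00428, and B2m passed too (0.41, adjusted p = 0.0484). The share of all genes called in either of these fits is not given here, and the 15.0% belongs to the fit of all libraries. Psmb10, at 706 ± 175 and 688 ± 125.2, and H2-T23, at 6059 ± 985 and 5549 ± 1454, were close in the 2 strains. After acute UVB and after chronic UVB 0 of 10 genes were called between NZM and WT (backgrounds 13.0% and 7.88%), with 1 and 1 at an unadjusted p below 0.05 and 0 by edgeR and DESeq2. Without the high-score libraries H2-K1 (0.45, adjusted p = 0.0436) and Tap2 (0.59, 0.00856) were higher in NZM after acute UVB.

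The test of whether UVB acted differently in NZM and WT gave 1 call. Tap1 had a UVB effect of -1.06 ± 0.25 in NZM and 0.14 ± 0.27 in WT after chronic UVB, a difference of -1.20 ± 0.37 (adjusted p = 0.0382), where 7.58% of all genes were called. It held without the 9 high-score libraries (-0.77, adjusted p = 0.0304) and by edgeR and DESeq2 (adjusted p = 0.0358 and 0.0169), but not when the score was fitted as a covariate (-0.53, adjusted p = 0.114). It was lost without any of 9 libraries, NZM chronic 55 and 56, WT chronic 27 and 29, NZM unexposed 32, 34 and 35 and WT unexposed 44 and 45, with adjusted p up to 0.0846. The other 9 genes also had negative differences after chronic UVB, Psmb9 at -1.35 ± 0.51 (adjusted p = 0.0964) and Psmb8 at -1.26 ± 0.54 (0.138) among them. Tap2, Psmb8 and Psmb9 passed when only these 4 groups were fitted (adjusted p = 0.0323, 0.0182 and 0.00887). After acute UVB 0 genes were called (background 0.115%, 1 at an unadjusted p below 0.05, and 0 by edgeR and DESeq2), with a median of -0.53 and 10 of 10 negative. With the high-score libraries left out, that median was -0.35, 7 of 10 were negative, and Psmb8 passed at -0.87 (adjusted p = 0.0319). Shares of all genes called in these refits are not given here. The 10 genes moved together over the libraries, so their shared signs are not 10 separate observations.

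Many further class I heavy chain genes of the MHC fell in iNZM after UVB. Of 12 tested of 14 listed, 8 and 9 fell in iNZM after acute and chronic UVB, 2 and 7 in NZM and 1 and 2 in WT, and 0 rose. The shares of all genes called lower were 12.4% and 15.7% in iNZM, 10.7% and 9.78% in NZM and 11.3% and 16.8% in WT, so the WT counts were near the background. Median log2 differences were -1.39 and -1.91 in iNZM, -0.72 and -1.14 in NZM and -0.51 and -0.56 in WT. H2-T22, a non-classical chain recognised by some gamma-delta T cells, averaged 1165 ± 445 in iNZM after chronic UVB, against 4979 ± 930 without, and fell by 2.18 ± 0.37 (adjusted p = 9.26e-05). H2-M2, a non-classical chain, fell in WT too, at 129 ± 112 after acute UVB and 113 ± 60.5 after chronic UVB, against 787 ± 205 (adjusted p = 0.000168 and 0.000177). After the high-score libraries were left out, 6 and 8 fell in iNZM, 4 and 5 in NZM and 5 and 5 in WT, with 1 higher in iNZM and 1 in NZM after acute UVB. All genes called lower were then 10.9% and 10.7% in iNZM, 14.1% and 2.67% in NZM and 15.0% and 21.2% in WT. Called higher were 10.6% and 9.94% in iNZM, 14.2% and 2.58% in NZM and 13.9% and 22.5% in WT.

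Tapbp, which encodes tapasin and ties the heavy chain to the pump, fell in iNZM with log2 differences of -1.0 ± 0.23 after acute UVB and -0.99 ± 0.23 after chronic UVB (adjusted p = 0.00134 and 0.00233). In NZM Tapbp fell with log2 differences of -0.78 ± 0.22 and -0.87 ± 0.22 (adjusted p = 0.00846 and 0.00566), and in WT its differences were -0.07 ± 0.23 and -0.47 ± 0.23 (adjusted p = 0.878 and 0.104). Erap1, the enzyme that trims peptides, fell after chronic UVB in iNZM, NZM and WT, with log2 differences of -1.10 ± 0.18, -0.78 ± 0.17 and -0.63 ± 0.18 (adjusted p = 7.83e-05, 0.00193 and 0.0073). It fell by 0.61 ± 0.18 in iNZM after acute UVB (adjusted p = 0.0127). The general chaperone genes Calr and Canx rose after acute UVB in all 3 strains, Calr by 0.60 ± 0.15 in iNZM, 0.49 ± 0.14 in NZM and 0.51 ± 0.15 in WT (adjusted p = 0.00338, 0.0132 and 0.013), and Canx by 0.42 ± 0.14, 0.35 ± 0.13 and 0.37 ± 0.14 (adjusted p = 0.0218, 0.0441 and 0.0488). Pdia3, which helps fold the heavy chain, rose in WT after chronic UVB by 0.42 ± 0.12 (adjusted p = 0.00581), and Tapbpl, a tapasin-like gene, fell by 0.88 ± 0.30 in NZM after acute UVB (adjusted p = 0.0318). Over the list of 6, 2 fell and 2 rose in iNZM after each regimen, 2 fell and 2 rose in NZM after acute UVB, 2 fell in NZM after chronic UVB, 2 rose in WT after acute UVB, and 1 fell and 2 rose in WT after chronic UVB. Over these 6 comparisons, 9.78% to 16.8% of all genes were called lower and 9.20% to 18.4% higher. In the fit with no high-score library, Tapbp differed by -0.61 and -0.56 in iNZM and by -0.65 and -0.49 in NZM (adjusted p = 0.0126, 0.0463, 0.00215 and 0.144), and by -0.47 in WT after chronic UVB (0.0142). Erap1 was then not called in iNZM after acute UVB (-0.29, adjusted p = 0.225) or in NZM after chronic UVB (-0.51, 0.0972).

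The rest of the proteasome was measured as a point of comparison. Of 11 non-catalytic or shared 20S subunits, 5 and 8 rose in iNZM after acute and chronic UVB, 5 and 0 in NZM and 10 and 10 in WT, and 0 fell in these 6 comparisons. The shares of all genes called higher were 12.8% and 13.1% in iNZM, 10.6% and 9.20% in NZM and 10.4% and 18.4% in WT. Without the high-score libraries 6 and 8 rose in iNZM, 2 and 0 in NZM and 10 and 10 in WT. The shares of all genes called higher were then 10.6% and 9.94%, 14.2% and 2.58%, and 13.9% and 22.5%. In WT after chronic UVB the core subunit gene Psma1 rose by 0.80 ± 0.11 (adjusted p = 1.54e-06), and in iNZM Psmb2 rose by 0.49 ± 0.10 (adjusted p = 0.000881). Of the constitutive catalytic subunits Psmb5, Psmb6 and Psmb7, 1 and 2 rose in iNZM, 0 and 0 in NZM and 3 and 2 in WT. Psmb5 rose in WT by 0.86 ± 0.19 and 0.92 ± 0.19 (adjusted p = 0.000666 and 0.000237) and Psmb6 by 0.68 ± 0.15 and 0.60 ± 0.15 (adjusted p = 0.000636 and 0.00193), after acute and chronic UVB. Psme1 and Psme2, which encode the interferon-inducible activator of the proteasome, rose in WT after chronic UVB by 0.66 ± 0.25 and 1.09 ± 0.31 (adjusted p = 0.036 and 0.00629). In iNZM they differed by 0.17 ± 0.25 and 0.20 ± 0.31 (adjusted p = 0.625 and 0.65), but without the high-score libraries they rose there by 0.86 ± 0.19 and 1.11 ± 0.22 (0.00223 and 0.00104). Pomp, the assembly factor of the proteasome, rose after chronic UVB by 0.36 ± 0.13 in iNZM, or 0.65 ± 0.15 without those libraries, and by 0.73 ± 0.13 in WT (adjusted p = 0.0347, 0.00334 and 5.97e-05). Psme3, a nuclear activator gene, rose after acute UVB by 0.53 ± 0.12 in iNZM, 0.41 ± 0.11 in NZM and 0.43 ± 0.12 in WT (adjusted p = 0.00114, 0.00767 and 0.0072).

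Some genes of the interferon gamma route and of MHC transcription fell. Of 17 tested of 18 listed, 6 and 9 fell in iNZM after acute and chronic UVB, 4 and 4 in NZM and 1 and 5 in WT, against 12.4% and 15.7%, 10.7% and 9.78%, and 11.3% and 16.8% of all genes. The WT acute count, 1 of 17, did not exceed that background. Rises numbered 2 in iNZM after acute UVB, 2 and 1 in WT, and 0 elsewhere. They were near or below the shares of all genes called higher, 12.8% in iNZM after acute UVB and 10.4% and 18.4% in WT. With the high-score libraries left out, 1 and 9 fell in iNZM, 5 and 3 in NZM and 4 and 6 in WT. The shares of all genes called lower were then 10.9% and 10.7%, 14.1% and 2.67%, and 15.0% and 21.2%. The iNZM acute count, 1 of 17, did not exceed that share. Ifngr1, the ligand-binding chain of the interferon gamma receptor, fell after chronic UVB with log2 differences of -1.68 ± 0.31 in iNZM, -1.40 ± 0.29 in NZM and -1.35 ± 0.31 in WT (adjusted p = 0.000241, 0.00108 and 0.000882). Irf1, an early factor of this route that acts on class I promoters, fell in iNZM after chronic UVB by 1.56 ± 0.32 (adjusted p = 0.000748). Ifng itself was at 0 in 23 libraries and at most 6.8, below the filter. Of 12 type I interferon-stimulated genes, 2 and 3 fell in iNZM, 1 and 1 rose in WT and 0 were called in NZM, counts near the shares of all genes called lower in iNZM (12.4% and 15.7%) or below those called higher in WT (10.4% and 18.4%). After the high-score libraries were left out, 2 and 1 fell in iNZM.

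Many markers of T cells, natural killer cells, Langerhans cells and dendritic cells fell after UVB. The summed value of 15 T and natural killer cell genes ran from 74.2 to 759 in iNZM after acute UVB and from 143 to 453 after chronic UVB, against 1705 to 2166 without. In NZM the sum ran from 149 to 769 and from 291 to 924, against 1594 to 2371, and in WT from 132 to 545 and from 167 to 481, against 626 to 1289. Of the 15 genes, 9 and 13 fell in iNZM, 7 and 7 in NZM and 5 and 5 in WT, and 1 rose in WT after acute UVB. Of all genes, 12.4% and 15.7% were called lower in iNZM, 10.7% and 9.78% in NZM and 11.3% and 16.8% in WT. Cd8b1 was at 0 in 11 libraries, Klrb1c in 10 and Ncr1 in 6, while Cd3e and Cd3g were at 0 in none. The summed Langerhans and dendritic cell markers, 10 genes, ran from 1721 to 22479 and from 1912 to 7407 in iNZM, against 34537 to 46962. The list includes H2-Aa, H2-Ab1 and Cd74, genes of MHC class II presentation. Their part in the sum is not given here, so the sum is not a count of these cells. In NZM the sum of the 10 ran from 5533 to 18743 and from 4361 to 19223, against 17336 to 39035, and in WT from 3496 to 18841 and from 4677 to 10079, against 24076 to 37944. Of these 10 genes 7 and 9 fell in iNZM, 2 and 6 in NZM and 5 and 6 in WT, and 1 rose in WT after acute UVB. Of 5 genes of all leukocytes, 1 and 5 fell in iNZM and 0 in NZM and WT. Other cell types went in different directions. The shares of all genes called higher were 12.8% and 13.1% in iNZM, 10.6% and 9.20% in NZM and 10.4% and 18.4% in WT. Against such shares, 1 call in a list of 3 to 6 genes says little about a cell type. Of 6 macrophage genes, 1 and 6 fell in iNZM, 1 rose in NZM after acute UVB and 2 fell in WT after chronic UVB, and the summed value ran from 734 to 31538 and from 419 to 3701 in iNZM, against 6518 to 18261. In NZM it ran from 3109 to 24042 and from 2625 to 17132, against 2996 to 4405. Of 4 fibroblast genes, 3 fell in iNZM after chronic UVB and 2 in WT after chronic UVB, while 1 and 2 rose in NZM. Of 6 keratinocyte genes, 3 and 2 fell in iNZM, 3 and 2 in NZM and 4 and 0 in WT, where 3 rose after chronic UVB. Of 3 endothelial genes, 1 fell in iNZM and 1 in WT after chronic UVB. Of 3 neutrophil genes tested, 2 rose in iNZM, 3 in NZM and 3 in WT after acute UVB, and after chronic UVB 1 fell in iNZM, 1 rose in NZM and 2 rose in WT. In the fit with no high-score library, the T and natural killer cell genes that fell numbered 8 and 9 in iNZM, 7 and 4 in NZM and 6 and 7 in WT, and the Langerhans and dendritic cell genes 5 and 8, 3 and 1, and 5 and 6. The macrophage genes then had 0 and 4 falls in iNZM and 4 rises in NZM after acute UVB. All genes called lower in that fit were 10.9% and 10.7% in iNZM, 14.1% and 2.67% in NZM and 15.0% and 21.2% in WT. Called higher in NZM after acute UVB were 14.2%. The part of these cells in the class I differences was not tested.

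The 10 genes moved closely together over the 43 libraries. Each correlated with the mean of the other 9, from r = 0.731 for Psmb10 and 0.767 for Tap2 to 0.976 for H2-K1, a description over libraries that share groups. The 5 genes outside the set most like their mean were H2-Q4 (r = 0.979), H2-T22 (0.965), Tmsb4x (0.945), H2-Q2 (0.92) and Tgfbi (0.915). With group means removed the same 5 had r of 0.967, 0.959, 0.905, 0.923 and 0.915. These 5 were picked by their likeness over the same 43 libraries, differences between groups included. Their falls after UVB and their high r thus largely follow from the choice, and the p-values below are no separate evidence. H2-Q4, another class I chain, fell with log2 differences of -1.40 ± 0.36 and -1.72 ± 0.36 in iNZM after acute and chronic UVB (adjusted p = 0.00345 and 0.000867) and of -1.39 ± 0.34 in NZM after chronic UVB (adjusted p = 0.00429). It differed by -0.03 ± 0.36 and -0.14 ± 0.36 in WT (adjusted p = 0.971 and 0.792). Tmsb4x, which encodes the actin-binding thymosin beta-4, fell with log2 differences of -0.96 ± 0.25 and -1.18 ± 0.25 in iNZM (adjusted p = 0.0037 and 0.000927). Without the high-score libraries the differences were -0.60 and -1.03 in iNZM and -0.87 in NZM after chronic UVB for H2-Q4 (0.00524, 0.000213 and 0.00243), and -0.47 and -0.69 in iNZM for Tmsb4x (0.0118 and 0.00237).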

How the data were processed

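Values are a deposited signal, the reads of a gene over the size factor of its library; per the submitters' processing notes the tools were STAR, HTSeq and DESeq2 and the build mm10; versions, annotation and strandedness are not given in the sources used here. Multiplied back by size factors of 0.6735 to 1.7503, 100% of values were whole within 0.01, though for 4 libraries whose factor is near 1 the step alone does not establish it. The filter asked for 10 or more in 4 or more libraries (19170 of 23256 genes). The test was limma 3.58.1 in R 4.3.3 on log2(value + 1), a scale that understates changes of low genes, with 1 mean per group over 43 libraries. Alternatives were pseudocounts 0.5 and 8, no filter, TMM scaling, compared groups only, a covariate for library numbers of 46 or above, hair follicle terms, edgeR 4.0.16, DESeq2 1.42.0 and leaving out each library. For counts at an unadjusted p below 0.05 no share of all genes is given. Replicates were not duplicates (lowest chi-square per gene 16.9). Ratios and relations used scipy 1.17.1, the relations with 100000 resamples; plots used matplotlib 3.10.9 with Python 3.11.15, pandas 2.3.3 and numpy 2.4.6. Steps were tested on simulated data. All 10 genes are named in every comparison; of other lists, up to 6 genes whole or the 4 with the smallest adjusted p. The members and lists were chosen with earlier results of these data known.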

Additional observations from a re-analysis of the deposited data

Results flagged for a closer look

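Of 90 sets of 4 or 5 libraries, 1 per gene and group, 8 had a library far from the rest (Dixon's test of the gap to the nearest library, at 95%). Chance gives about 1 in 20. NZM acute 5, a library with a high hair follicle score, was far below the others for B2m (8954), H2-D1 (13683) and Nlrc5 (169). WT unexposed 44 was far below for H2-K1 (12294) and Psmb9 (965). WT chronic 29 was far above for Tap1 (4652) and Psmb9 (1739). iNZM chronic 23 was far above for Psmb10 (444). The effect of chronic UVB on Tap1 differed between NZM and WT by -1.20 on the log2 scale (limma adjusted p = 0.0382).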

How the results depend on the processing

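No paired analysis was possible because no library number occurs in more than 1 group. Pseudocounts of 0.5 and 8, TMM scaling and edgeR kept every count of called genes within 1.5 times. DESeq2 called 3 genes in NZM against WT without UVB, against 1. Without the filter, and with a covariate for numbers of 46 or above, chronic against acute UVB gave 0 in iNZM and 0 in WT, against 1 each. With that covariate B2m lost its NZM acute call (-0.86, limma adjusted p = 0.0681) and Nlrc5 gained one (-1.07, 0.0351). All libraries numbered 46 or above were exposed to UVB, so the covariate is tied to exposure. With only the compared groups, the counts were 5 for iNZM acute, 7 for NZM acute and 1 for WT acute UVB, 0 and 4 for chronic against acute UVB in iNZM and WT, 5 and 1 for NZM against WT without UVB and after acute UVB, and 4 for the chronic effect, NZM minus WT. With the hair follicle score as covariate, they were 0 for NZM chronic, 1 for WT acute and 3 for WT chronic UVB, 2 for chronic against acute UVB in WT, 4, 1 and 3 for NZM against WT without UVB and after acute and chronic UVB, 2 for iNZM against NZM after chronic UVB, and 0 for the chronic effect, NZM minus WT. There H2-K1 and H2-D1, NZM against WT after chronic UVB, were 0.75 and 0.71 (adjusted p = 0.0159 and 0.0358), against -0.15 and -0.17. Without the high-score libraries, the counts were 7 for NZM acute, 3 for NZM chronic, 4 for WT acute and 3 for WT chronic UVB, 2 and 4 for chronic against acute UVB in iNZM and WT, 6 and 2 for NZM against WT without UVB and after acute UVB, 1 for the acute effect, NZM minus WT, and 0 ratios. For these refits, shares of all genes called stand above only for UVB against no UVB in the hair follicle fits. The cause of these changes was not tested, beyond the fewer libraries. Leaving out 1 library gave 8 to 10 and 9 to 10 genes in iNZM, 1 to 4 and 4 to 10 in NZM and 0 to 0 in WT after acute and chronic UVB. It gave 0 to 1 for chronic against acute UVB in each strain and for the chronic effect, NZM minus WT, 1 to 1 for NZM against WT without UVB, 0 to 0 for the other comparisons and 6 to 12 ratios. With 2 to 5 libraries a group, a difference missed by the test may be present.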
